A study of Homo sapiens with 6 samples.

Results

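The NRF2, glutathione and ferroptosis defence genes are 43 listed genes of antioxidant defence, read in RNA sequencing libraries of OVCAR5 cells. They were picked by symbol, out of 62656 genes in each deposited gene table, and all 43 were found. The compared groups were OVCAR5 cells given NTX301 at 100 nM and OVCAR5 cells given only the solvent DMSO, each for 3 days and each with 3 libraries. NTX301 is named by the submitters as a DNA hypomethylating agent, a drug that lowers cytosine methylation, and the comparison asks how the antioxidant genes stand in cells exposed to it. OVCAR5 is a long-established line of human ovarian cancer cells, so the data hold 1 line at 1 dose and 1 time. Nothing in the labels tells whether replicates were grown apart. The p-values therefore speak only of the spread among these 6 libraries, and part or all of it may be technical.

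NRF2, encoded by NFE2L2, is the transcription factor that switches on antioxidant genes. Under calm conditions KEAP1 holds it for destruction, and oxidants or electrophiles release it to bind antioxidant response elements together with a small MAF protein. Its targets make and recycle glutathione, reduce peroxides and quinones, supply NADPH and store iron. Ferroptosis is a form of cell death driven by iron-dependent lipid peroxidation, and it is held back chiefly by GPX4, which uses glutathione to reduce lipid peroxides, and in parallel by AIFM2, which recycles ubiquinol.

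The libraries held 23194160 to 23842859 expected counts with NTX301 and 22131175 to 25743732 with DMSO. The first principal component of log2 CPM, with 89.1% of the variance, set the groups apart. On the second, with 3.59%, DMSO replicate 3 stood at -17.1, apart from DMSO replicates 1 and 2 at 11.3 and 6.4. NTX301 replicates 1, 2 and 3 stood at 3.38, 1.62 and -5.61 there, so that replicate 3 was lowest in both groups. The epithelial markers EPCAM, KRT7, KRT8, KRT18, KRT19, CDH1 and CLDN4 summed to 2739 to 2813 TPM with NTX301 and 4473 to 4657 TPM with DMSO. EPCAM, KRT8, KRT18, KRT19 and CLDN4 fell, while KRT7 rose by 1.26 ± 0.05 and CDH1 by 0.31 ± 0.09 on the log2 scale. PAX8, a marker of Müllerian epithelium, averaged 9.13 TPM with NTX301 and 5.88 TPM with DMSO and was not called (log2 0.22 ± 0.11). MSLN of the same list averaged 4.01 TPM with NTX301 and 3.66 TPM with DMSO and was not called either. WT1 and SOX17 were too low to be tested. MUC16, which averaged at or under 0.133 TPM in both groups, was called lower (log2 -2.31 ± 0.26). It averaged 0.71 CPM with NTX301 and 3.55 CPM with DMSO. The 5 leukocyte markers summed to 29.4 to 30.04 TPM with NTX301 and 18.6 to 20.2 TPM with DMSO. Nearly all of this sum was CD14 (called higher) and LYZ (called lower). PTPRC and CD3E averaged at or under 0.04 TPM in each group. The 4 endothelial markers summed to 2.12 to 2.38 TPM with NTX301 and 1.47 to 1.64 TPM with DMSO. CDH5 was 2.18-fold higher and VWF was called higher from a low level. PECAM1 was not called (log2 -0.26 ± 0.13), and KDR was too low to be tested. The 5 fibroblast markers summed to 2.52 to 2.61 TPM with NTX301 and 1.19 to 1.40 TPM with DMSO. PDGFRA was 7.94-fold higher and LUM was called lower (log2 -0.66 ± 0.21). DCN, COL1A2 and THY1 were too low to be tested. The part of these marker differences in the members' results was not tested. In bulk RNA, fewer cells of a kind and less RNA per cell cannot be told apart.

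Antioxidant genes moved in both directions with NTX301, often within a single enzyme family. GPX1, GPX2, GPX3, GCLM, SRXN1 and TXN rose while GPX4, CAT, TKT, TALDO1 and TXNRD1 fell. Of the 43 members 41 passed the filter on low counts, and 19 of these rose (46.3%), 16 fell (39%) and 6 were not called. A call means an adjusted p below 0.05 in edgeR's quasi-likelihood test, with the Benjamini-Hochberg adjustment made over 19029 tested genes. Across all tested genes 35.4% rose and 35.1% fell, so that 70.5% were called. Among genes averaging at least 10 CPM, as 37 of the members did, 37% rose and 44.8% fell, against 40.5% and 43.2% of these members. The members' share of calls thus lay near that of other genes of such levels. CPM (counts scaled by library size and composition to a common total) did not overlap between the groups for 36 of 41 members, or 87.8%, against 73.7% of all tested genes. The median absolute log2 fold change was 0.55 over the members and 0.49 over all tested genes, and the median signed change was 0.10, against -0.0005. Non-overlap and these medians were set beside genes of all levels, not beside those averaging at least 10 CPM alone.

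By 2-fold or more, GPX2 and GCLM rose, and TKT, CAT, GPX4, AKR1B10 and TALDO1 fell. In all tested genes 13.4% rose and 8.55% fell by that much. The members together made up 1.69% to 1.73% of all TPM (a scale per transcript length with the same total in every library) with NTX301 and 1.65% to 1.76% with DMSO. Fold changes are relative to the typical gene. With no scaling factor the median of all tested genes was 0.205 on the log2 scale, and the signs of NFE2L2, KEAP1, GSS, GSR, GSTP1 and FTL then turned positive.

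The genes that changed by 2-fold or more lie apart from each other in GENCODE 29 (GRCh38), looked up by gene ID. GPX2 spans chr14:64939152-64942905, minus strand, and GCLM spans chr1:93885205-93909456, minus strand. TKT spans chr3:53224707-53256052, minus strand, CAT spans chr11:34438925-34472062, plus strand, GPX4 spans chr19:1103926-1106791, plus strand, AKR1B10 spans chr7:134527592-134541408, plus strand and TALDO1 spans chr11:747329-765024, plus strand.

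**Figure D1:**
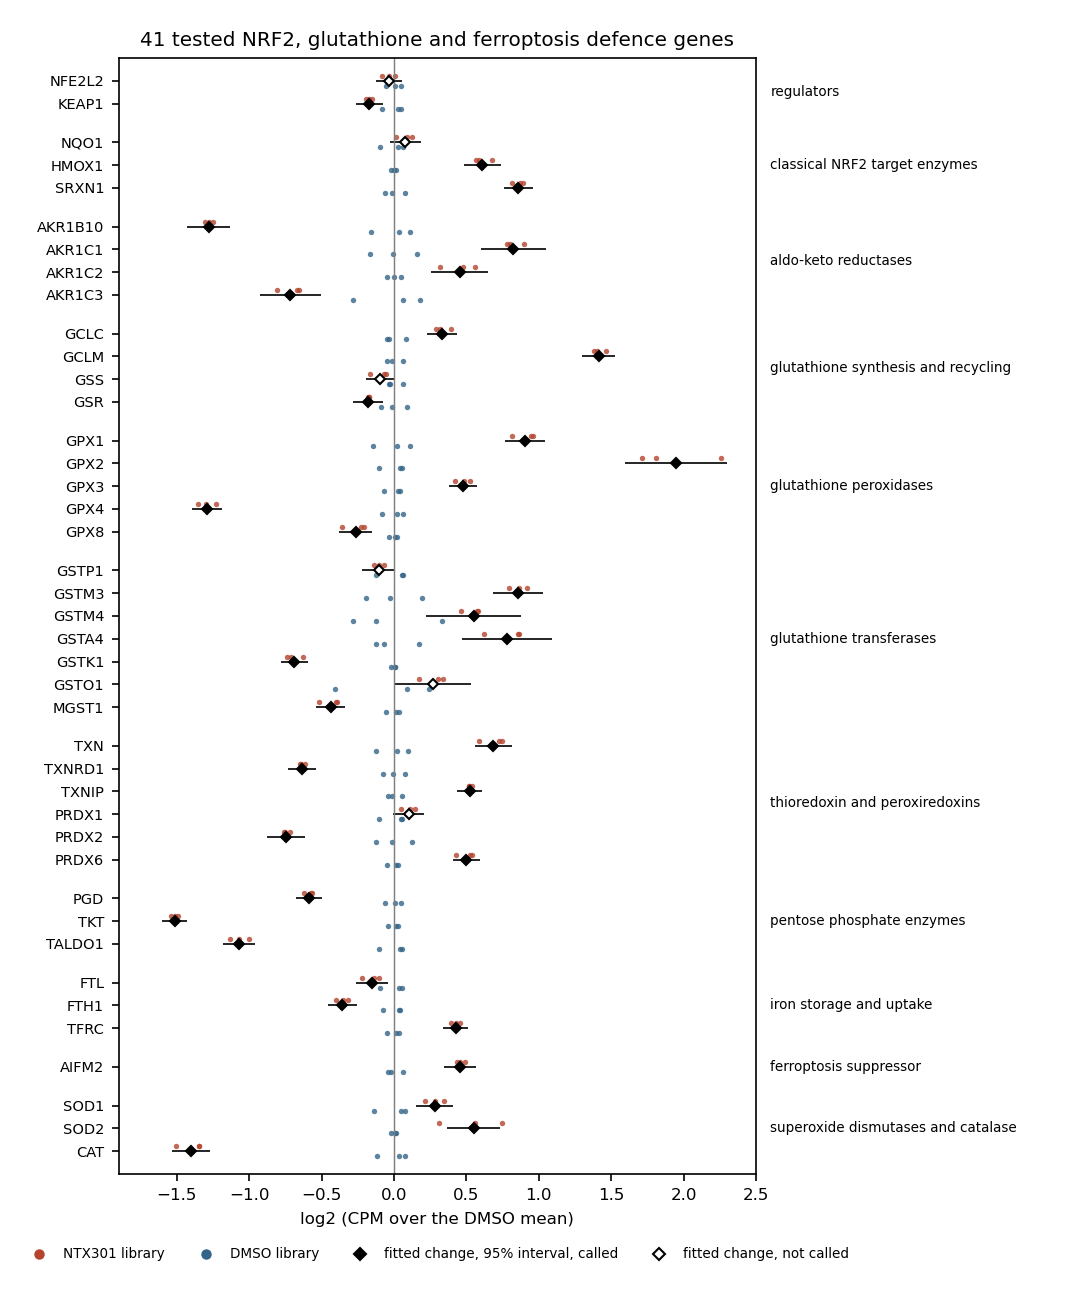
Each row is 1 of the 41 tested members, grouped by role, with the log2 ratio of each library's CPM to the DMSO mean on the horizontal axis (NTX301 libraries in red, DMSO libraries in blue) and the fitted log2 fold change with its 95% interval as a diamond, filled where called. GPX2 lies farthest to the right at 1.95 and TKT farthest to the left at -1.51; without a scaling factor NFE2L2, KEAP1, GSS, GSR, GSTP1 and FTL change sign.

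The promoter window of RefSeq (GRCh38.p14, 250 bases before to 50 after the start site) was at hand for 35 of the members and was searched for the antioxidant response element core TGACNNNGC on both strands. The core was found in 9 of these 35 windows (25.7%), against 13.6% of 27305 promoters and 15.1% of those of 12395 tested genes. The full form TGACTCAGC, which also holds the AP-1 site TGACTCA, was found in the windows of GSTP1 and AIFM2, and in 0.564% of all promoters. The core stood in 4 of 16 windows of members that rose, in GCLM, GPX2, GSTA4 and AIFM2, and in 2 of 13 windows of members that fell, TXNRD1 and PGD. It also stood in GSTP1 and GSTO1, which were not called, and in GSTM1, which was too low to be tested. A match describes these letters alone, and elements outside the window were not searched. The sites below show the core in genes that rose (GCLM, GPX2, AIFM2), fell (TXNRD1) and were not called (GSTP1), in capitals within 15 bases on either side, in the direction of the gene.
GCLM, minus strand, chr1:93909441-93909479: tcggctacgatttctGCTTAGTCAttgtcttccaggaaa
GPX2, minus strand, chr14:64942844-64942882: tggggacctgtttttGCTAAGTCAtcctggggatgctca
AIFM2, minus strand, chr10:70132824-70132862: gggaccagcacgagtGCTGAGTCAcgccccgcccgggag
TXNRD1, plus strand, chr12:104215665-104215703: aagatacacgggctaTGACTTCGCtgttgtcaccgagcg
GSTP1, plus strand, chr11:67583731-67583769: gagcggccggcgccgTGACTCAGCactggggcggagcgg

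In GCLM, GPX2 and AIFM2 the core reads on the strand opposite to the gene, and lies 34, 122 and 22 bases before the start site. The number of CG dinucleotides, the letters that carry DNA methylation, had a median of 22 in the windows of members that rose and 27 in those of members that fell. Over all genes called higher the median was 25, and over all genes called lower 27. GPX2 had only 4 CG dinucleotides in its window and GCLM had 41. Over 33 tested members with a window, the CG number and the log2 fold change had a Pearson correlation of -0.218, a description only, since genes of 1 fit share their libraries.

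The NRF2 regulators themselves moved little. NFE2L2, which encodes NRF2, had 173, 184 and 178 CPM with NTX301, against 184, 176 and 189 CPM with DMSO. The groups overlapped and the gene was not called (log2 fold change -0.04, 95% interval -0.13 to 0.05). With no scaling factor it was called higher at 0.17 (edgeR adjusted p = 0.0028). KEAP1, its inhibitor, had 81.3, 79.1 and 80.2 CPM with NTX301, against 93.3, 91.9 and 85.4 CPM with DMSO. KEAP1 was lower in each NTX301 library than in any DMSO library and fell by 0.17 ± 0.04 on the log2 scale (estimate ± SE, edgeR adjusted p = 0.0039), but was at 0.04 and not called without a scaling factor (adjusted p = 0.45). The ratio of NFE2L2 to KEAP1 in TPM was 2.38 ± 0.09 with NTX301 and 2.18 ± 0.14 with DMSO (SD, n = 3 each). NFE2L2 overlaps AGPS on the other strand, which averaged 110.5 TPM with NTX301 and 85.3 TPM with DMSO.

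Of 20 other genes that partner NRF2 or act in its turnover, all tested, 7 rose (35%) and 10 fell (50%). Across all tested genes these shares were 35.4% and 35.1%. The list's median log2 fold change was -0.12. Without a scaling factor 6 fell. The small MAF partner MAFF rose to 32.7 ± 1.78 CPM with NTX301, against 23.0 ± 0.38 CPM with DMSO. MAFG, another small MAF gene, was called higher at 0.30 ± 0.05, and MAFK was not called at 0.00 ± 0.05. AMER1 and PALB2, which encode proteins that bind KEAP1, rose by 0.60 ± 0.15 and 0.45 ± 0.06. The related factors NFE2L3 and NFE2L1 fell by 0.67 ± 0.04 and 0.60 ± 0.04, and DPP3, another KEAP1-binding protein, fell by 0.65 ± 0.04. BACH1, the repressor that competes with NRF2 for its sites, fell by 0.23 ± 0.05. MAFG, MAFK and BACH1 are named after their values were seen.

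Among 3 classical NRF2 target enzymes, HMOX1 and SRXN1 rose while NQO1 did not pass the threshold. SRXN1, sulfiredoxin, which restores over-oxidized peroxiredoxins, had 99.6, 98.1 and 94.2 CPM with NTX301, against 56.4, 53.1 and 51.4 CPM with DMSO. All NTX301 libraries lay far above the DMSO libraries, at 0.86 ± 0.05 on the log2 scale (edgeR adjusted p = 1.1e-08). HMOX1, heme oxygenase, which breaks down heme and frees its iron, had 25.8, 24.1 and 23.8 CPM with NTX301, against 16.1, 15.9 and 16.3 CPM with DMSO. The HMOX1 groups were likewise apart, at 0.61 ± 0.06. NQO1, a quinone reductase widely used as a readout of NRF2 activity, was already among the higher members at 803 ± 19 TPM with NTX301 and 615 ± 33.7 TPM with DMSO. In CPM its libraries overlapped, with 501, 488 and 464 CPM with NTX301 and 479.5, 468 and 429 CPM with DMSO. Its log2 fold change was 0.08 (95% interval -0.03 to 0.19, edgeR adjusted p = 0.18), and with no scaling it was called higher at 0.28 (adjusted p = 0.00013).

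Other genes known as NRF2 targets split as well. Of 22 matched genes of this list, 19 were tested, and 7 rose (36.8%) and 10 fell (52.6%). Across all tested genes these shares were 35.4% and 35.1%, and among those averaging at least 10 CPM 37% and 44.8%. The list's median was -0.17, and 6 of its genes fell on log2(TPM + 1). CBR3, a carbonyl reductase, rose by 1.91 ± 0.12, to 7.87 ± 0.33 CPM with NTX301, against 2.09 ± 0.14 CPM with DMSO. TRIM16 rose by 1.85 ± 0.05 and OSGIN1, an oxidative stress response gene, by 1.63 ± 0.07. TRIM16 has a near copy, TRIM16L, so its division of reads is uncertain. ABCC3, an export pump for glucuronide conjugates, fell by 1.21 ± 0.04, to 243 ± 4.11 CPM with NTX301, against 563 ± 25.9 CPM with DMSO. ALDH3A1, an aldehyde dehydrogenase, and CYP4F11, a fatty acid hydroxylase, fell by 0.75 ± 0.13 and 0.74 ± 0.08.

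Glutathione is made in sequence by glutamate-cysteine ligase, built of the catalytic subunit GCLC and the modifier subunit GCLM, and by glutathione synthetase, GSS. GCLM had 45.8, 46.6 and 48.5 CPM with NTX301, against 18.4, 17.01 and 17.5 CPM with DMSO. That was 2.67-fold higher, with no overlap and little spread in either group (log2 1.41 ± 0.05, edgeR adjusted p = 6.4e-10). GCLC had 78.5, 82.7 and 77.2 CPM with NTX301, against 66.8, 61.0 and 61.5 CPM with DMSO. The catalytic subunit therefore rose less, by 0.33 ± 0.05. Per transcript length, GCLC exceeded GCLM 2.34 ± 0.15 times with NTX301 and 4.76 ± 0.11 times with DMSO (SD, n = 3 each). GSS had 69.6, 69.2 and 64.7 CPM with NTX301, against 75.5, 71.1 and 70.7 CPM with DMSO, and was not called (log2 -0.10, 95% interval -0.20 to 0.01). With no scaling GSS was called higher at 0.11 (edgeR adjusted p = 0.035), and it was called lower without DMSO replicate 3 (-0.13, adjusted p = 0.039). GSR, which reduces oxidized glutathione with NADPH, fell slightly to 75.8, 76.2 and 76.2 CPM with NTX301, against 91.7, 85.3 and 81.0 CPM with DMSO (log2 -0.18 ± 0.05, 0.03 and not called without a scaling factor).

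Cystine import and glutathione turnover leaned towards higher levels. Of 20 tested genes, 14 rose (70%) and 5 fell (25%), with a median of 0.52, against 35.4% and 35.1% of all tested genes. SLC7A11 and SLC3A2, the pair that forms the cystine importer, were both called higher at 0.56 ± 0.06 and 0.66 ± 0.05, and they are named here outside the rule for named genes, after their values were seen. CHAC2 and GGCT, which act in glutathione breakdown, rose by 1.02 ± 0.10 and 0.91 ± 0.05, and the mitochondrial glutaredoxin GLRX2 rose by 0.79 ± 0.09. OPLAH, which turns 5-oxoproline back into glutamate, fell to 21.96 ± 1.29 CPM with NTX301, against 111 ± 2.11 CPM with DMSO (log2 -2.34 ± 0.05). GGT7, of the gamma-glutamyltransferase family, and SLC1A5, a glutamine carrier, fell by 0.81 ± 0.07 and 0.71 ± 0.04.

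**Figure D2:**
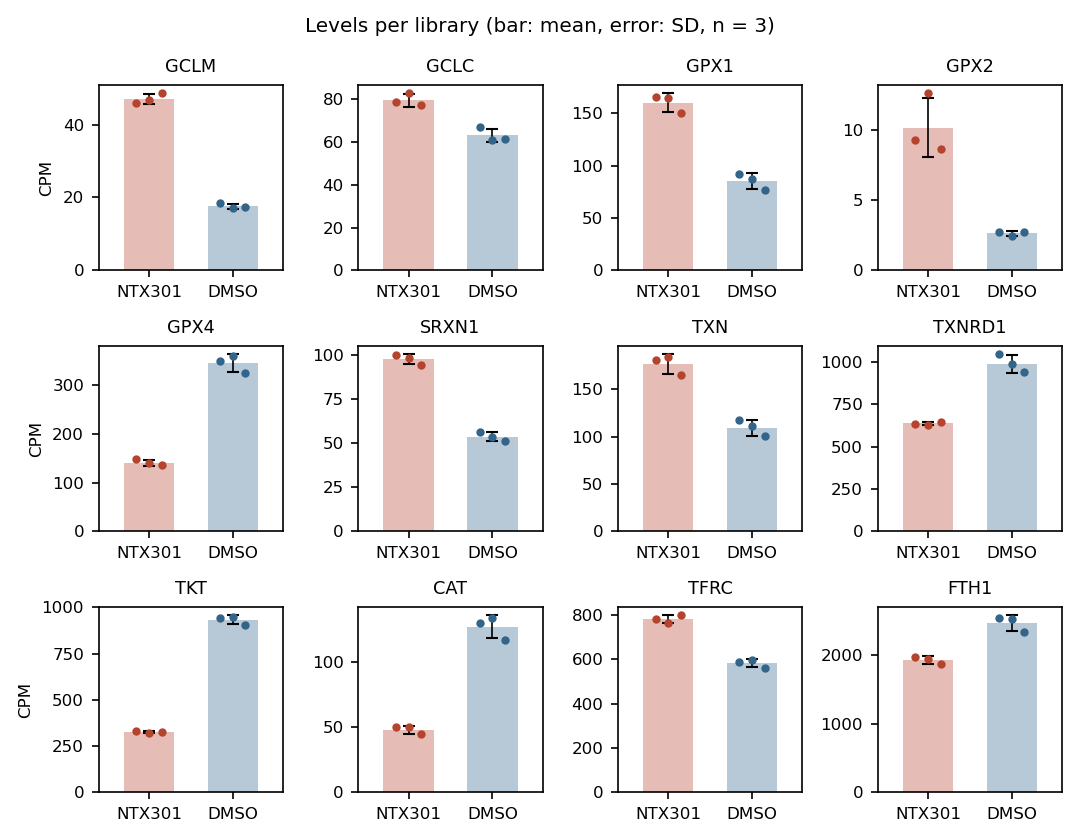
Each panel gives CPM of 1 member in the 3 NTX301 libraries (red) and the 3 DMSO libraries (blue), with bars for the mean and error bars for the SD. GCLM, GCLC, GPX1, GPX2, SRXN1, TXN and TFRC are higher with NTX301 and GPX4, TXNRD1, TKT, CAT and FTH1 lower, with no overlap in any of these 12 panels and no change of sign without a scaling factor.

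Glutathione peroxidases changed in make-up. GPX4, the enzyme that reduces phospholipid peroxides within membranes, had 148, 141 and 136 CPM with NTX301, against 351, 361 and 327 CPM with DMSO. All NTX301 libraries were under every DMSO library by a wide margin, 2.45-fold lower (log2 -1.29 ± 0.05, edgeR adjusted p = 6.9e-10). GPX1, the abundant cytosolic enzyme that reduces hydrogen peroxide, had 166, 165 and 150.1 CPM with NTX301, against 92.4, 86.9 and 77.3 CPM with DMSO. GPX1 thus rose 1.87-fold (log2 0.90 ± 0.06, edgeR adjusted p = 1e-07).

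GPX2, an epithelial peroxidase best known from the gut, had 9.26, 12.6 and 8.66 CPM with NTX301, against 2.72, 2.45 and 2.74 CPM with DMSO. It showed the highest rise of the tested members, 3.86-fold, from a low level, and its NTX301 libraries also spread the most within the family, relative to their mean. GPX2 overlaps CHURC1 on the other strand, which averaged 92.2 TPM with NTX301 and 81.5 TPM with DMSO, and the sources do not say whether reads were counted by strand, so the part of CHURC1 reads in the GPX2 values was not tested. GPX3, a secreted form, had 128, 124 and 119 CPM with NTX301, against 90.4, 91.2 and 84.6 CPM with DMSO (log2 0.48 ± 0.04). GPX8, a peroxidase of the endoplasmic reticulum, fell by 0.26 ± 0.05, to 36.6, 37.2 and 33.5 CPM with NTX301, against 43.5, 43.2 and 41.9 CPM with DMSO, and was at -0.06 and not called without a scaling factor.

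In TPM summed over these 5 genes, GPX4 held 38.6% ± 0.80 with NTX301 and 71.3% ± 0.64 with DMSO (SD, n = 3 each). The share of GPX1 was 39.0% ± 0.42 with NTX301 and 15.8% ± 0.74 with DMSO, and that of GPX3 was 16.2% ± 0.25 with NTX301 and 8.79% ± 0.11 with DMSO. The sum itself was 956 ± 22.4 TPM with NTX301 and 1088 ± 43.9 TPM with DMSO. GPX1 and GPX4 thus stood at a ratio of 1.01 ± 0.03 in TPM with NTX301, against 0.222 ± 0.01 with DMSO.

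**Figure D3:**
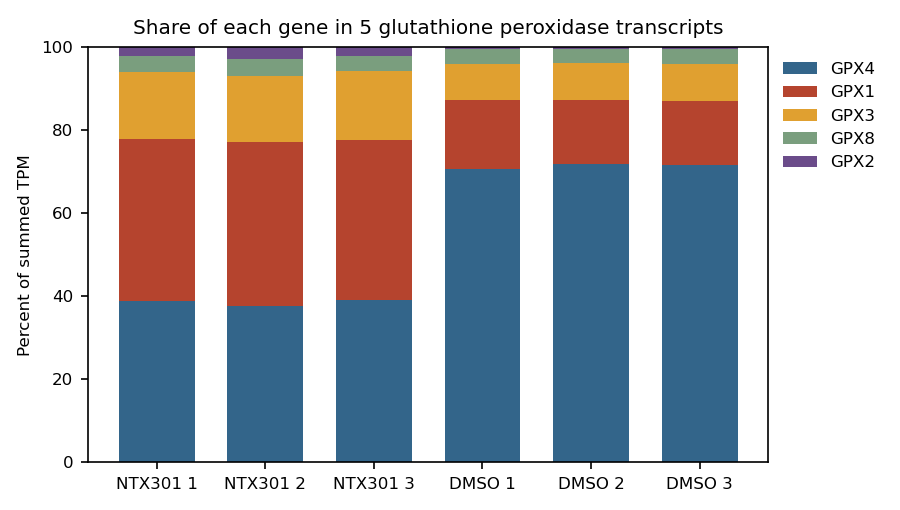
Stacked bars give the percent of TPM summed over GPX1, GPX2, GPX3, GPX4 and GPX8 held by each gene, 1 bar per library. GPX4 holds 37.6% to 39.1% in the NTX301 libraries and 70.6% to 71.7% in the DMSO libraries.

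GPX1, GPX2, GPX3, GPX4 and TXNRD1 carry selenocysteine, which needs its own machinery to be built into protein. Of 10 tested genes of selenoprotein synthesis and selenium supply, 6 fell (60%) and 2 rose, with a median of -0.44, where 35.1% of all tested genes fell, and 44.8% of those averaging at least 10 CPM. The count of 2 was 1 without DMSO replicate 1 or DMSO replicate 3 and 0 without NTX301 replicate 1. SELENOP, the selenium carrier protein, fell to 31.4 ± 3.11 CPM with NTX301, against 88.6 ± 4.61 CPM with DMSO. SECISBP2, which binds the selenocysteine insertion element of these mRNAs, fell by 0.86 ± 0.05, and LRP8, a receptor for SELENOP, by 0.60 ± 0.05. SEPHS1 and SEPHS2, of the selenophosphate synthetase family, rose by 0.16 ± 0.05 and 0.13 ± 0.04.

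Glutathione transferases, which join glutathione to electrophiles, were led by GSTP1 with 1106 ± 17.6 TPM with NTX301 and 1027 ± 57.3 TPM with DMSO. In CPM the GSTP1 groups overlapped, with 397, 388 and 378 CPM with NTX301 and 433, 435 and 382 CPM with DMSO, and GSTP1 was not called (log2 -0.10, 95% interval -0.22 to 0.01, positive without a scaling factor). It was called lower without DMSO replicate 3 (-0.18, edgeR adjusted p = 0.00093). GSTP1 is a gene often silenced by promoter methylation in prostate cancer, and it was highly expressed here without the drug. GSTM3, a mu-class enzyme, had 60.5, 58.2 and 55.6 CPM with NTX301, against 36.6, 31.5 and 28.0 CPM with DMSO, and rose by 0.86 ± 0.08. GSTA4, which detoxifies the lipid peroxidation product 4-hydroxynonenal, had 4.83, 4.87 and 4.12 CPM with NTX301, against 3.01, 2.45 and 2.55 CPM with DMSO (log2 0.78 ± 0.14). GSTM4 rose by 0.55 ± 0.15 with 6.36, 5.85 and 6.33 CPM with NTX301, against 3.91, 3.49 and 5.34 CPM with DMSO.

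GSTK1, the mitochondrial and peroxisomal kappa-class enzyme, fell to 48.4, 51.1 and 47.4 CPM with NTX301, against 79.4, 79.5 and 78.0 CPM with DMSO (log2 -0.69 ± 0.04). MGST1, a membrane-bound transferase with peroxidase activity, fell to 96.0, 96.2 and 88.1 CPM with NTX301, against 128, 129.6 and 122 CPM with DMSO (log2 -0.44 ± 0.05). GSTO1 had 56.0, 57.2 and 51.0 CPM with NTX301, against 53.4, 48.1 and 34.2 CPM with DMSO. The groups overlapped, and DMSO replicate 3 stood low in GSTO1. The gene was not called (log2 0.27, edgeR adjusted p = 0.064), but was past the threshold without DMSO replicate 1 (0.40, adjusted p = 0.011) and without a scaling factor. Without DMSO replicate 3 it was at 0.09 (edgeR adjusted p = 0.2). GSTM1 and GSTM2 did not pass the filter. GSTM1 had 8.6, 2.2 and 3.3 expected counts with NTX301, against 2.8, 0 and 0 with DMSO, where a count of 0 allows up to 0.125 and 0.144 CPM. GSTM2 had 4.5, 9.6 and 11.5 expected counts with NTX301, against 6.3, 1 and 3.2 with DMSO. The mu-class genes are similar in sequence and lie side by side, so reads may have been divided among them. Of 14 other matched transferases and peroxidases 6 were tested, of which 4 fell (66.7%) and 1 rose (16.7%, and 2 genes without a scaling factor). Across all tested genes 35.1% fell and 35.4% rose. GSTZ1, an enzyme of tyrosine breakdown, was at -1.13 ± 0.08 and GSTCD at 0.99 ± 0.07.

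Aldo-keto reductases, which reduce aldehydes and ketones with NADPH and are known as strong NRF2 targets, moved apart. AKR1B10 had 20.7, 21.1 and 21.5 CPM with NTX301, against 55.1, 52.3 and 45.9 CPM with DMSO. It was 2.43-fold lower, with every NTX301 library under all DMSO libraries (edgeR adjusted p = 1.1e-08). AKR1C3, which also converts steroids and prostaglandins, had 33.4, 33.1 and 30.1 CPM with NTX301, against 59.6, 55.2 and 43.4 CPM with DMSO, and fell by 0.71 ± 0.10. AKR1C1 had 10.4, 11.3 and 10.6 CPM with NTX301, against 6.75, 6.03 and 5.39 CPM with DMSO, and rose by 0.82 ± 0.10. AKR1C2 had 12.8, 10.8 and 12.04 CPM with NTX301, against 8.96, 8.36 and 8.66 CPM with DMSO, and rose by 0.45 ± 0.09. AKR1C1 and AKR1C2 are near-identical, so the division of reads between them is uncertain, and the pair summed rose by 0.62 ± 0.06. All 3 AKR1C genes summed fell by 0.30 ± 0.08 (edgeR adjusted p = 0.0053), since AKR1C3 held 68.5% of their summed TPM with NTX301 and 83.7% with DMSO.

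In the thioredoxin system the electron carrier and its reductase changed in opposite directions. TXN, thioredoxin, had 181, 184 and 165 CPM with NTX301, against 117, 111 and 100.5 CPM with DMSO, and rose by 0.69 ± 0.06. TXNRD1, the cytosolic thioredoxin reductase, had 636, 631 and 647 CPM with NTX301, against 1045, 987 and 939 CPM with DMSO. The reductase fell by 0.64 ± 0.04 with tight NTX301 libraries (edgeR adjusted p = 1.3e-07). The ratio of TXNRD1 to TXN in TPM was 0.724 ± 0.06 with NTX301 and 1.84 ± 0.03 with DMSO (SD, n = 3 each). TXNIP, which binds and inhibits thioredoxin and limits glucose uptake, had 144, 144 and 146 CPM with NTX301, against 105, 97.9 and 99.7 CPM with DMSO, and rose by 0.52 ± 0.04.

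Peroxiredoxins reduce peroxides with electrons from thioredoxin or glutathione. PRDX6, which uses glutathione and can reduce phospholipid peroxides, had 199.8, 202 and 187 CPM with NTX301, against 142, 141 and 135 CPM with DMSO (log2 0.50 ± 0.04). PRDX2 fell to 44.5, 44.2 and 45.6 CPM with NTX301, against 74.4, 81.8 and 68.8 CPM with DMSO (log2 -0.75 ± 0.06). PRDX1, the highest of the 3 per transcript length, had 341, 331 and 319 CPM with NTX301, against 317, 319 and 286 CPM with DMSO, with overlap. PRDX1 was not called (log2 0.10, 95% interval -0.01 to 0.21, edgeR adjusted p = 0.081), but passed the threshold without a scaling factor at 0.31 and without NTX301 replicate 3 at 0.13 (edgeR adjusted p = 0.049). Without DMSO replicate 3 PRDX1 was at 0.04 (edgeR adjusted p = 0.39). Of 18 other tested genes of thioredoxins, peroxiredoxins and methionine sulfoxide repair, 6 rose (33.3%) and 8 fell (44.4%), with a median of -0.08. Across all tested genes these shares were 35.4% and 35.1%. TXNDC17, a thioredoxin-like protein, rose by 1.16 ± 0.07, and the mitochondrial reductase TXNRD2 by 0.53 ± 0.07. SESN3, a sestrin, NXN, nucleoredoxin, and TXNRD3 fell by 1.00 ± 0.05, 0.95 ± 0.05 and 0.72 ± 0.07.

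The pentose phosphate pathway supplies the NADPH that GSR and TXNRD1 use, and all 3 of its listed enzymes fell. TKT, transketolase of the non-oxidative branch, had 331, 321 and 328 CPM with NTX301, against 944, 950.0 and 905 CPM with DMSO. It was 2.86-fold lower, the largest fall of the tested members, with groups far apart (log2 -1.51 ± 0.04, edgeR adjusted p = 6.2e-11). TALDO1, transaldolase, had 99.6, 104 and 95.2 CPM with NTX301, against 217, 215 and 195 CPM with DMSO (log2 -1.07 ± 0.05). PGD, which makes NADPH in the oxidative branch, had 132, 132 and 128 CPM with NTX301, against 202, 197 and 188 CPM with DMSO (log2 -0.59 ± 0.04). The 3 kept their negative sign without a scaling factor and on log2(TPM + 1).

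Of 18 other tested genes of NADPH supply, 9 rose (50%) and 7 fell (38.9%), with a median of 0.12. Across all tested genes these shares were 35.4% and 35.1%. H6PD, the hexose-6-phosphate dehydrogenase of the endoplasmic reticulum, fell to 77.0 ± 0.16 CPM with NTX301, against 283 ± 11.3 CPM with DMSO. PGLS, the lactonase that acts just before PGD, fell by 1.02 ± 0.04, and NADK, which makes NADP from NAD, by 0.93 ± 0.04. RPIA, which acts in the non-oxidative branch, rose by 0.76 ± 0.05, and the folate enzymes MTHFD1 and ALDH1L2 rose by 0.72 ± 0.04 and 1.11 ± 0.18.

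Of the 3 iron genes TFRC rose and the ferritin genes FTH1 and FTL fell, though the ferritin calls did not hold under every scaling and unit. TFRC, the transferrin receptor that brings iron in, had 782, 764 and 797 CPM with NTX301, against 586, 596 and 561 CPM with DMSO. It rose 1.34-fold with no overlap (log2 0.43 ± 0.04, edgeR adjusted p = 1.5e-06). FTH1, the ferritin heavy chain that oxidizes iron for storage, had 1979, 1936 and 1871 CPM with NTX301, against 2539, 2523 and 2339 CPM with DMSO, and fell by 0.36 ± 0.05. On log2(TPM + 1) FTH1 was at -0.11 and not called (limma adjusted p = 0.16). FTL, the light chain, had 1999.6, 1951 and 1841 CPM with NTX301, against 2234, 2199.9 and 2011 CPM with DMSO, and fell by 0.15 ± 0.05, but was at 0.05 and not called without a scaling factor. FTL was also not called without DMSO replicate 1 (edgeR adjusted p = 0.058) or DMSO replicate 2 (adjusted p = 0.053). Per transcript length the ferritins were the highest of all members, at 4999.8 ± 75.2 TPM for FTH1 with NTX301 and 5408 ± 169 TPM with DMSO. Ferritin genes have many processed pseudogenes, whose entries took 1.88% of the counts of FTH1 and its pseudogenes together with NTX301 and 2.02% with DMSO.

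Iron-regulatory proteins bind hairpins in these mRNAs, protecting TFRC mRNA from decay and holding back ferritin translation when iron is low. The hairpin letters were searched in GENCODE 29 transcripts as a C, any 5 bases, the loop CAGTG with A, C or T, and 5 bases that pair with the first 5, allowing G with T. Such letters stood in 205 of 19652 protein-coding genes (1.04%), and in TFRC 4 times, where only 2 genes had 3 or more. They are shown with the loop in capitals, 5′ to 3′, to set uptake, storage and export side by side.
TFRC, 3′ untranslated, transcript bases 3394 to 3410: cggaagCAGTGCcttcc
TFRC, 3′ untranslated, transcript bases 3798 to 3814: cgggagCAGTGTcttcc
TFRC, 3′ untranslated, transcript bases 3863 to 3879: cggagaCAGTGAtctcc
TFRC, 3′ untranslated, transcript bases 3910 to 3926: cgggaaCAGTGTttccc
FTH1, 5′ untranslated, transcript bases 65 to 81: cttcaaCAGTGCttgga
FTL, 5′ untranslated, transcript bases 41 to 57: cttcaaCAGTGTttgga
SLC40A1, 5′ untranslated, transcript bases 205 to 221: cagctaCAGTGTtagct

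Of 22 other tested genes of iron handling, 6 rose (27.3%) and 11 fell (50%), with a median of -0.10. Across all tested genes these shares were 35.4% and 35.1%. SLC40A1, ferroportin, the only known iron exporter, fell to 6.74 ± 0.60 CPM with NTX301, against 21.6 ± 1.43 CPM with DMSO (log2 -1.68 ± 0.09). HFE, which modulates transferrin receptor uptake, fell by 1.66 ± 0.09, and the iron chaperone PCBP2 by 1.05 ± 0.04. SLC39A8, a carrier of zinc, manganese and iron, rose to 49.5 ± 1.95 CPM with NTX301, against 14.4 ± 0.83 CPM with DMSO. SLC25A28, a mitochondrial iron importer, and CISD1, an iron-sulfur protein of the outer mitochondrial membrane, rose by 0.55 ± 0.07 and 0.42 ± 0.06. ACO1 and IREB2, which encode the iron-regulatory proteins, were both called lower at -0.51 ± 0.04 and -0.57 ± 0.04, and SLC11A2 and STEAP3, which act in iron uptake, were called lower at -0.77 ± 0.06 and -0.25 ± 0.04. These 4 are named after their values were seen.

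AIFM2, also known as FSP1, reduces ubiquinone to the lipid radical trap ubiquinol and holds back ferroptosis without glutathione. It had 34.4, 33.2 and 33.7 CPM with NTX301, against 23.9, 25.6 and 24.2 CPM with DMSO. AIFM2 rose by 0.46 ± 0.05 (edgeR adjusted p = 5.9e-06), where GPX4 fell. Per transcript length AIFM2 was the lower of the pair, at 21.2 ± 0.76 TPM with NTX301 and 13.3 ± 0.63 TPM with DMSO. GPX4 was at 369 ± 11.1 TPM with NTX301 and 776 ± 32.8 TPM with DMSO. AIFM2 overlaps MACROH2A2 on the other strand, which averaged 9.88 TPM with NTX301 and 14.4 TPM with DMSO. The part of MACROH2A2 reads in the AIFM2 values was not tested. Of 25 other tested genes listed as ferroptosis suppressors, 9 rose (36%) and 10 fell (40%), with a median of -0.06. Across all tested genes these shares were 35.4% and 35.1%. GCH1, which starts the synthesis of the radical trap tetrahydrobiopterin, rose to 21.4 ± 0.19 CPM with NTX301, against 8.27 ± 0.51 CPM with DMSO. PDSS1, of ubiquinone side chain synthesis, rose by 1.25 ± 0.09. The other ubiquinone genes of the list went both ways, and are named after their values were seen. PDSS2, COQ6 and COQ9 were called higher, COQ4, COQ7, COQ8A and COQ8B were called lower, and COQ2, COQ3 and COQ5 were not called. The desaturase SCD, the sterol reductase DHCR7 and the phospholipase PLA2G6 had the largest falls of the list, at -3.23 ± 0.06, -1.82 ± 0.04 and -1.20 ± 0.11. DHCR7 uses up 7-dehydrocholesterol, a sterol that itself shields lipids from peroxidation, so it is not a suppressor in that sense, though the list counts it.

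Among genes that feed lipid peroxidation, 5 of 16 tested genes were called higher (31.2%) and 6 called lower (37.5%), with a median of -0.13. These shares lay near the 35.4% and 35.1% of all tested genes. LPCAT3, which loads polyunsaturated fatty acids into phospholipids, fell to 54.6 ± 0.49 CPM with NTX301, against 127 ± 8.26 CPM with DMSO. SAT1, a polyamine acetyltransferase, and the lipoxygenase ALOX12 fell by 0.84 ± 0.04 and 0.82 ± 0.20. ACSL4, which activates those fatty acids, was called lower at -0.56 ± 0.04 and is named after its values were seen. The mitochondrial channels VDAC2 and VDAC3 rose by 0.31 ± 0.04 and 0.28 ± 0.04, and CYB5R1 rose by 0.18 ± 0.06. The count of 5 was 3 without NTX301 replicate 1 or DMSO replicate 3.

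Superoxide dismutases turn superoxide into hydrogen peroxide, which catalase breaks down. CAT, the catalase of peroxisomes, had 50.08, 50.05 and 44.8 CPM with NTX301, against 130.2, 134 and 117 CPM with DMSO. Catalase was 2.64-fold lower with no overlap (log2 -1.40 ± 0.06, edgeR adjusted p = 1.9e-09). SOD1, the cytosolic copper-zinc enzyme, had 139.7, 146 and 133 CPM with NTX301, against 121, 119 and 104 CPM with DMSO, and rose by 0.28 ± 0.06. SOD2, the mitochondrial manganese enzyme, had 365, 308 and 416 CPM with NTX301, against 249.9, 249 and 245 CPM with DMSO, and rose by 0.55 ± 0.08. The SOD2 libraries spread widely with NTX301 and lay close together with DMSO.

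**Figure D4:**
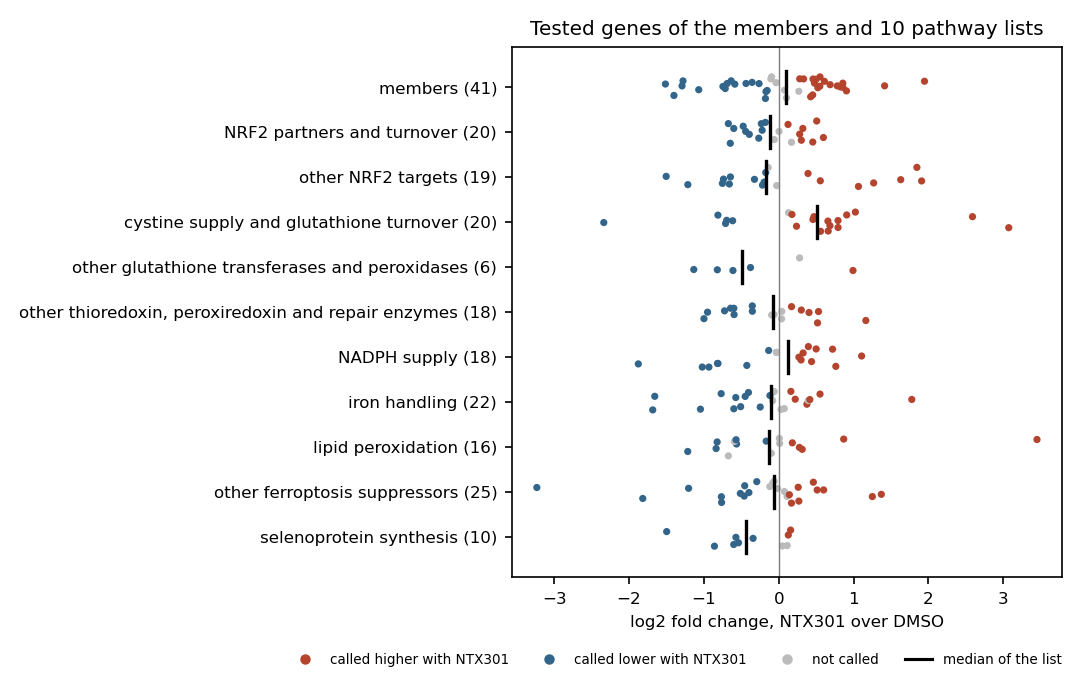
Each point is the log2 fold change (NTX301 over DMSO) of 1 tested gene among the members or 1 of 10 pathway lists, red where called higher, blue where called lower and grey where not called, with a black bar at the list's median and the number tested in brackets. The median is 0.52 for cystine supply and glutathione turnover, -0.44 for selenoprotein synthesis and -0.49 for other glutathione transferases and peroxidases, where all tested genes have a median of -0.0005. The points above 2 are ANPEP, GGT5 and ALOXE3, which averaged under 1 CPM over all libraries; without a scaling factor the median of all tested genes is 0.205.

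The mix of transcript isoforms was read from the mean transcript length that the tables give per gene and library. This length cannot change for members with 1 transcript (SRXN1, AKR1B10, GPX2, PRDX6, PGD, FTL and CAT). A swap between isoforms of like length would not show in it. The median absolute change of this length was 0.336% over the tested members and 0.292% over all tested genes. None of the 41 tested members changed by more than 10%, where 6.98% of all tested genes did. NQO1 shifted the most among them, with a mean length of 1221 bases with NTX301, against 1302 bases with DMSO.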

How the data were processed

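RNA was sequenced from OVCAR5 cells, 3 libraries with NTX301 at 100 nM and 3 with DMSO, with groups taken from sample titles and treatment labels. For each library the authors deposited a table of all genes that holds expected counts (estimated reads per gene, in the RSEM format per the file headers), TPM and the mean transcript length. Aligner, strand setting and annotation release are not given in these sources. Of 62703 entries, 47 copies on the Y chromosome were merged with their X partner. By Ensembl ID 62639 of 62656 genes were given a symbol, and 58220 have a GENCODE 29 position. Of the members 42 have such a position, SOD2 being the exception, and 11 of these overlap a tested gene on the other strand.

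Expected counts were rounded to whole numbers, genes with low counts were removed (filterByExpr), and the 19029 left were fitted with edgeR 4.0.16 (TMM scaling, quasi-likelihood test) in R 4.3.3, with p-values adjusted by the Benjamini-Hochberg method over all of them and a call at 0.05. CPM use the TMM library sizes. Standard errors and 95% intervals were derived from the test's F statistic. The TMM factors were 1.0676 to 1.083 with NTX301 and 0.9209 to 0.9391 with DMSO, and the libraries held 22131175 to 25743732 expected counts. Alternatives were RLE scaling, no scaling, no filter, DESeq2 1.42.0, limma-voom, limma 3.58.1 on log2(TPM + 1) and log2(TPM + 0.1), a replicate block, each library left out, pseudogenes added, and AKR1C or GSTM genes summed. AKR1C1 and AKR1C2 were summed as a pair after seeing the data. The limit for a count of 0 is 3 counts and covers counting error only.

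The scripts were tested on simulated data. The 43 genes and the pathway lists were chosen with earlier results of these data known. All 43 are named, and of each pathway list up to 3 genes per direction with the largest change among called genes averaging at least 1 CPM. TRIM16L and GSTT1 of these lists were not matched to 1 entry. A few genes of these lists are not reported here by name.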

Additional observations from a re-analysis of the deposited data

How the results depend on the processing

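Of the 35 called members, all 35 were called in the same direction with RLE scaling, without the expression filter, with DESeq2, with limma-voom and without any 1 of the NTX301 libraries or DMSO replicate 3. The number was 34 without DMSO replicate 1 or 2, 31 without a scaling factor and 30 on each TPM scale. Without a scaling factor the calls over all genes were 8787 higher and 4744 lower, so that 64.9% were higher, against 50.2% with TMM. On log2(TPM + 1) 4318 and on log2(TPM + 0.1) 4297 were lower. Signs turned without a scaling factor for NFE2L2 (0.17), KEAP1 (0.0358), GSS (0.11), GSR (0.0286), GSTP1 (0.10) and FTL (0.0514). On log2(TPM + 1) they turned for NFE2L2 (0.17), KEAP1 (0.0438), GSS (0.11), GSTP1 (0.11) and FTL (0.056), and log2(TPM + 0.1) gave 0.17 for NFE2L2, 0.0445 for KEAP1, 0.11 for GSS, 0.11 for GSTP1 and 0.056 for FTL. AKR1C1 and AKR1C2 turned to -0.30 when all 3 AKR1C genes were summed. NRF2 partners called lower were 6 without a scaling factor and 5 on each TPM scale, and other NRF2 targets called lower were 6 on each TPM scale. Other glutathione transferases called higher were 2 without a scaling factor and 2 on each TPM scale. Lipid peroxidation genes called higher were 8 on log2(TPM + 0.1) and 3 to 5 with a library left out. Selenoprotein synthesis genes called higher were 1 without the expression filter and 0 to 3 with a library left out. With a replicate block 21 members were called higher and 18 lower, and 6837 and 6749 genes overall. GSS, GSTP1, GSTO1 and PRDX1 were called with the block. Without the expression filter GSS, GSTP1 and GSTO1 were called too, and DESeq2 called PRDX1. Deviations of same-numbered libraries correlated at 0.1244, 0.0179 and 0.0948, each above those of differently numbered libraries, at -0.1218 to 0.0176. The numbers were not taken as pairs in the main fit, since the labels do not say that a number marks a shared culture or day. Whether same-numbered libraries share a culture or day was not tested. The causes of these shifts were not tested. The standard errors of the tested members, 0.04 to 0.16 on the log2 scale, limit what 3 libraries per group can resolve.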
